A study of Mus musculus with 16 samples.

Results

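Amino acid carriers of 7 solute carrier (Slc) families were examined in quadriceps femoris muscle of aged mice that lack the transcription factor ATF4 in muscle. Members were all array probes whose gene symbol is Slc1a, Slc3a, Slc6a, Slc7a, Slc36a, Slc38a or Slc43a followed by a number. This gave 80 probes for 56 genes, out of 25697 probes and 16593 named genes on the arrays. A probe of Slc7a6os, a gene on the opposite strand of Slc7a6, was left out because it encodes no carrier of these families. All 16 mice were male, 22 months old and carried a floxed Atf4 allele on both chromosomes. The 8 ATF4 mKO mice also carried an MCK-Cre transgene, in which the promoter of muscle creatine kinase drives Cre recombinase in skeletal muscle fibers and heart. The 8 littermate control mice lacked the transgene. Other cells of the muscle, such as endothelial and blood cells, are not targets of this Cre. Each mouse gave 1 array, and the values are log2 signals. In all arrays the signals started near 8.3, a floor at which an mRNA is not told apart from background.

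ATF4 is translated when amino acids are scarce or the endoplasmic reticulum is stressed, and it binds composite C/EBP-ATF elements in genes for amino acid synthesis, amino acid transport and the charging of tRNAs. Many carriers of the Slc7 family, though not all, exchange one amino acid for another and work as heterodimers with a heavy chain of the Slc3 family. Many of the Slc6 and Slc38 families, though again not all, use the sodium gradient to bring amino acids or related molecules into the cell. Carriers of the Slc1 family take up glutamate or small neutral amino acids, and many of the Slc36 and Slc43 families move small or large neutral amino acids. In muscle fibers these carriers feed protein synthesis, glutamine release, and the stores of taurine and creatine.

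The core of the C/EBP-ATF element was searched in promoter windows to show where the letters that ATF4 is known to bind lie among these genes. The windows, from RefSeq (GRCm38.p6), run from 250 bases before to 50 bases after a start site. Of the 56 genes, 40 had windows in the table used here, 61 windows in all, and Slc7a5 was not among them. The motif TGATGNAA on either strand was present in 5 of the 61 windows (8.20%), against 3.97% of the 32851 windows of all genes. The 5 windows belonged to 4 genes, namely Slc7a11, Slc1a4, Slc7a7 and Slc6a21, and those of Slc7a7 overlap and share a match. The stretches that hold the matches are printed along the strand of the gene with the match in capitals. A match on the opposite strand reads as its reverse complement, and distances are counted back from the start site of the window.
Slc7a11, chr3:50443633-50443699, minus strand, matches starting 66 and 47 bases before the start site: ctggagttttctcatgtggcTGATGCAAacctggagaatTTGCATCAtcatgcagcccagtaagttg
Slc1a4, chr11:20332690-20332737, minus strand, 4 bases before: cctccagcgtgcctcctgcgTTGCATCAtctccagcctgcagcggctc
Slc7a7, chr14:54418058-54418105, minus strand, 141 bases before: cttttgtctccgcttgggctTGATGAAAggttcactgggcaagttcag
Slc7a7, chr14:54417918-54417965, minus strand, 1 base before: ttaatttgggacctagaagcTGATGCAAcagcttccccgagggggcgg
Slc6a21, chr7:45282825-45282872, plus strand, 28 bases before: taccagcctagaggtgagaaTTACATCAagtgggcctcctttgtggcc

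The signals of these 4 genes lay at or near the floor of the arrays in both genotypes. The mean of Slc7a11, the light chain of the cystine and glutamate exchanger, was 8.33 in both genotypes, and that of Slc1a4, a carrier of alanine, serine and cysteine, was 8.36 in both. The 3 windows of Slc6a9, the carrier with the larger fall described below, did not hold TGATGNAA. They held its first 5 letters, TGATG, which are present in 39.3% of all windows. These stretches are shown because Slc6a9 is the called gene with a promoter in the table. The capitals mark TGATG as it reads from the opposite strand.
Slc6a9, chr4:117835090-117835134, plus strand, 148 bases before the start site: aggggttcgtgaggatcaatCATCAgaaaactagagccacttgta
Slc6a9, chr4:117849159-117849203, plus strand, 171 bases before a second start site: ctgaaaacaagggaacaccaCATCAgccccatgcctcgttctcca
Slc6a9, chr4:117849209-117849253, plus strand, 121 bases before that site: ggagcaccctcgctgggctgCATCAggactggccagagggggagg
Slc6a9, chr4:117855515-117855559, plus strand, 12 bases before the last start site: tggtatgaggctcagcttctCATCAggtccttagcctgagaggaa
A match is a run of letters, and no match says only that these letters are not in the window.

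Most carriers could not be read above the floor. Taking a mean of 8.5 or more over the 16 arrays as above the floor, 14 of the 80 probes and 13 of the 56 genes passed, against 8811 of the 25697 probes of the arrays. The genes were Slc1a1 and Slc1a3, Slc6a6, Slc6a8 and Slc6a9, Slc7a2, Slc7a5, Slc7a6 and Slc7a8, and Slc38a2, Slc38a3, Slc38a7 and Slc38a9. No probe of the Slc3a, Slc36a or Slc43a families passed. The members just inside this limit were Slc7a6 (8.52) and Slc7a5 (8.54), and those just outside were Slc38a10 and Slc1a6 (8.49 each). Slc7a5 passed through the control mice, since its mean in ATF4 mKO mice (8.48) was below the limit. Signals of different probes depend on the probe as well as on the mRNA, so they are not compared as amounts of mRNA.

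**Figure D1:**
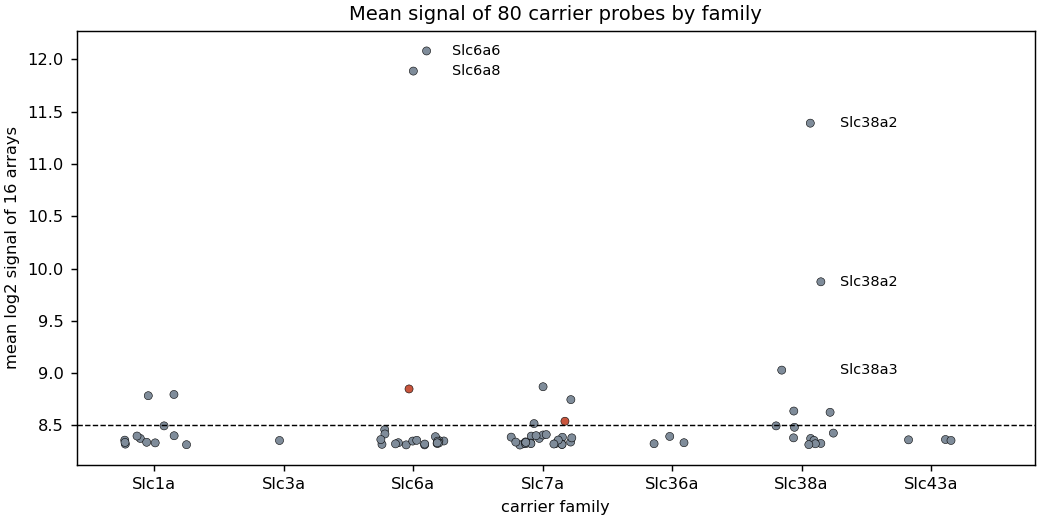
Mean log2 signal over 16 arrays (vertical axis) of the 80 carrier probes, 1 point per probe, by family (horizontal axis); the dashed line is the limit of 8.5 and the red points are Slc6a9 and Slc7a5, the probes called as lower in ATF4 mKO muscle. Of the 80 probes, 66 lie below the line, among them every probe of Slc3a, Slc36a and Slc43a.

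The genotypes were compared to ask which carriers differ in mRNA signal in old whole muscle when Atf4 is deleted in its fibers. Atf4 itself had a mean signal of 10.45 in control and 8.52 in ATF4 mKO mice, without overlap. With limma at an adjusted p of 0.1 over all 25697 probes, 2 of the 80 carrier probes fell, 0 rose and 78 did not pass. The falls were those of Slc6a9, a sodium-dependent glycine transporter, and Slc7a5, the light chain of the L-type carrier of large neutral amino acids such as leucine. Over all probes, 0.136% were called, 0.0973% as lower and 0.0389% as higher. The median change of the 80 probes was -0.000707 and that of all probes 0.000468. Of the 80, 45 were lower and 35 higher in ATF4 mKO muscle, and 48.5% of all probes were lower. At an unadjusted limma p of 0.05, 5 of the 80 probes passed, against 5.62% of all probes, and at 0.025, 2 passed, against 2.98%.

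Slc6a9 brings glycine, an amino acid of glutathione, creatine and heme synthesis, into the cell. In control mice its signal ranged from 8.81 to 9.03 with a median of 8.98, and in ATF4 mKO mice from 8.65 to 8.83 with a median of 8.75. The groups overlapped only through control mouse 1 (8.81) and ATF4 mKO mouse 1 (8.83), and the other 7 control mice were above every ATF4 mKO mouse. Control mice averaged 8.96 ± 0.07 and ATF4 mKO mice 8.74 ± 0.06 (SD, n = 8 each). The change was -0.21 ± 0.03 (S.E.; 95% interval -0.28 to -0.15; limma, adjusted p = 0.00562), in 8 of 8 ATF4 mKO mice below the control mean, and the two-sided exact permutation p was 0.000311. Without control mouse 1 the change was -0.23, the largest fall with any 1 array left out. In a bulk sample, fewer cells of a type and less mRNA per cell cannot be told apart.

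Slc6a9 is also known from red blood cell precursors, and erythroid mRNAs are therefore given beside it. Of 5 erythroid markers listed, 3 were measured, all 3 were lower and 0 passed the threshold. Hba-a1, an alpha globin, had a difference of -0.44 (95% interval -0.94 to 0.06; limma, adjusted p = 0.894), Alas2, the erythroid enzyme of heme synthesis, of -0.14 and Slc4a1, the anion exchanger of red cells, of -0.03, with Slc4a1 at the floor. The mean of the 3 probes ranged from 9.92 to 10.81 in control and from 9.70 to 10.30 in ATF4 mKO mice, so the groups overlapped. The Hba-a1 signal was highest in control mouse 3 (14.39) and ATF4 mKO mouse 3 (13.70), where Slc6a9 was 8.97 and 8.78. Over the 8 control mice, Slc6a9 and Hba-a1 had a Pearson r of 0.178 (two-sided exact permutation p = 0.629, adjusted p = 0.839) and a Spearman rho of 0.0476 (exact permutation p = 0.935, adjusted p = 0.935). Over the 8 ATF4 mKO mice r was -0.0455 (exact permutation p = 0.920, adjusted p = 0.920) and rho -0.238 (exact permutation p = 0.582, adjusted p = 0.776). Without the 2 mice farthest from the median of Slc6a9, r was -0.299 over control and 0.259 over ATF4 mKO mice. These are 2 of 4 relations computed, and the adjustment is over the 4. The part of red cells in the fall of Slc6a9 was not tested.

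Slc7a5 carries leucine, isoleucine, phenylalanine and other large neutral amino acids across the cell membrane in exchange for glutamine. Its signal ranged from 8.56 to 8.70 in control mice, with a median of 8.59, and from 8.44 to 8.52 in ATF4 mKO mice, with a median of 8.48. The groups did not overlap, which was so for 0.101% of all probes and, with ATF4 mKO mice lower, for 0.0856%. Control mice averaged 8.60 ± 0.05 and ATF4 mKO mice 8.48 ± 0.02 (SD, n = 8 each). The change was -0.12 ± 0.02 (S.E.; 95% interval -0.16 to -0.09; limma, adjusted p = 0.00562), and the two-sided exact permutation p was 0.000155, the smallest that 12870 arrangements can give. Groups of this size that do not overlap always give this permutation p. Control mouse 7 (8.70) stood above the other control mice, and without it the change was -0.11 (limma, adjusted p = 0.000249). With a signal this near the floor in the knockout, the array may give too small a size for the fall, which was not tested.

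Slc7a5 is abundant in endothelial cells of some tissues, and all 5 endothelial markers listed were measured. All 5 were lower in ATF4 mKO muscle and 0 passed the threshold, with a median change of -0.02. Their mean ranged from 8.82 to 8.94 in control and from 8.78 to 8.93 in ATF4 mKO mice. Emcn, endomucin, had a difference of -0.11 and Pecam1 of -0.03, and Kdr was at the floor (8.37). Their part in the fall of Slc7a5 was not tested. The 5 markers of muscle fibers, Ckm, Acta1, Myh4, Myh1 and Tnnt3, were all above the floor, and their median change was -0.00383.

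**Figure D2:**
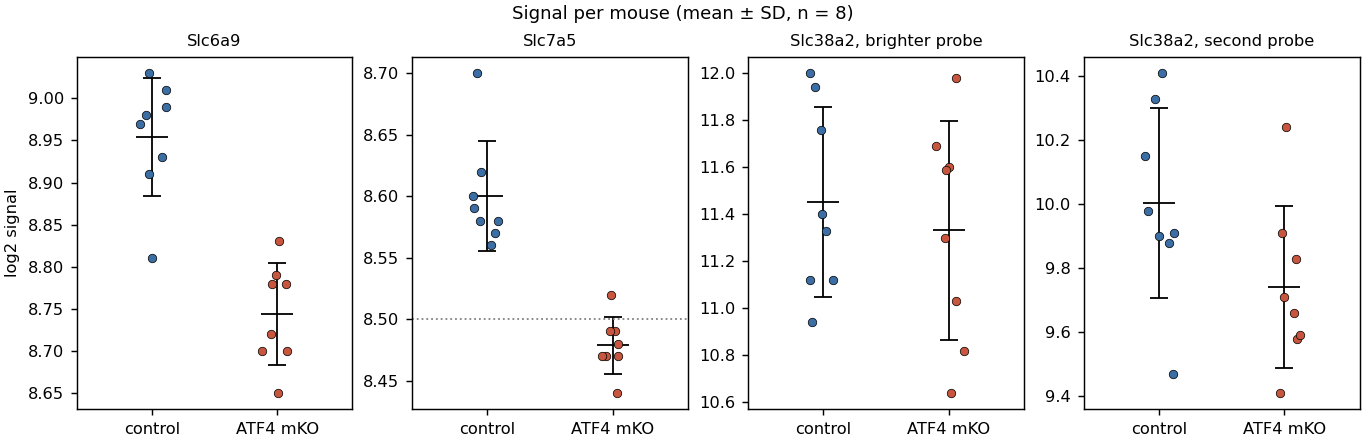
Log2 signal (vertical axes, each with its own range) of Slc6a9, Slc7a5 and both Slc38a2 probes above the floor, 1 point per mouse, in 8 control and 8 ATF4 mKO mice, with bars for mean ± SD; the dotted line in the Slc7a5 panel marks 8.5. Slc7a5 separates the genotypes, Slc6a9 does so except for 1 control mouse at 8.81, and both Slc38a2 probes overlap widely.

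Slc3a2, the heavy chain that brings Slc7a5 and other light chains to the cell surface, was read by 1 probe at the floor. Its lowest signal was 8.33 in either genotype, its median 8.35 in control and 8.37 in ATF4 mKO mice, and its change was 0.00737 (95% interval -0.02 to 0.03). All 16 mice were at the floor, where a fall could not have shown. Of the other light chains, Slc7a8 (on 1 of 2 probes above the floor), a relative of Slc7a5 that also carries neutral amino acids, ranged from 8.60 to 8.84 in control and from 8.64 to 8.97 in ATF4 mKO mice and had a difference of 0.05 (95% interval -0.05 to 0.14). Slc7a6, which exchanges arginine for neutral amino acids, had a difference of 0.00660 (95% interval -0.03 to 0.04). The spread of Slc7a6 between mice was close to that of Slc7a5, with an SD within genotypes of 0.0321 against 0.0365, and the genotypes overlapped for Slc7a6, from 8.48 to 8.57 in control and from 8.48 to 8.59 in ATF4 mKO mice.

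The cationic amino acid carriers were read in part. Slc7a2, which takes up arginine, lysine and ornithine, was above the floor on 1 of 3 probes. That probe ranged from 8.77 to 8.92 in control and from 8.72 to 9.02 in ATF4 mKO mice and gave 0.02 ± 0.04 as the difference (S.E.; limma, adjusted p = 0.983). Slc7a1, the widely expressed cationic carrier, was below the limit of 8.5 on both probes, and the brighter of them gave -0.04 (unadjusted p = 0.0491, adjusted p = 0.879 in limma). Slc7a3 had differences of -0.03 and 0.00916 on its probes. The 26 probes of the Slc7a family had a median change of -0.00247, with 15 lower and 11 higher, and 22 of them were below the floor. Besides those named, Slc7a4, Slc7a7, Slc7a9, Slc7a10, Slc7a11, Slc7a12, Slc7a13, Slc7a14 and Slc7a15 were below it on every probe.

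Slc38a2, a sodium-dependent carrier of small neutral amino acids including glutamine that adapts to amino acid supply, varied more between mice than any other carrier above the floor. On its brighter probe the signal ranged from 10.94 to 12.00 in control mice, with a median of 11.36, and from 10.64 to 11.98 in ATF4 mKO mice, with a median of 11.44. The SD within genotypes was 0.436, larger than that of 99.7% of the 8811 probes above the floor. The groups overlapped almost completely, with control mouse 5 and ATF4 mKO mouse 1 highest and ATF4 mKO mouse 6 lowest. The change was -0.12 ± 0.21 (S.E.; 95% interval -0.55 to 0.32; limma, adjusted p = 0.982).

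The second Slc38a2 probe ranged from 9.47 to 10.41 in control mice, with a median of 9.95, and from 9.41 to 10.24 in ATF4 mKO mice, with a median of 9.69. Of 8 ATF4 mKO mice, 7 were below the control mean, but only 1 was below every control mouse. The change was -0.26 ± 0.13 (S.E.; 95% interval -0.54 to 0.01; limma, unadjusted p = 0.0607, adjusted p = 0.888), and the two-sided exact permutation p was 0.0788. This is the most negative change of the 80 probes, and it was within the spread between mice. The last Slc38a2 probe lay at the floor (8.38) and gave -0.00860. The probes above the floor went together in part. Their Pearson r was 0.581 over 8 control mice (exact permutation p = 0.134, adjusted p = 0.268) and 0.659 over 8 ATF4 mKO mice (exact permutation p = 0.0691, adjusted p = 0.268). Spearman's rho was 0.429 (exact permutation p = 0.299, adjusted p = 0.598) and 0.714 (exact permutation p = 0.0576, adjusted p = 0.230). Without the 2 mice farthest from the median of the brighter probe, r was 0.615 and 0.590.

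Other Slc38a carriers differed less between mice and did not pass. Slc38a3, a glutamine carrier that can also release glutamine, ranged from 8.84 to 9.35 in control and from 8.98 to 9.16 in ATF4 mKO mice and had a difference of 0.00711 (95% interval -0.11 to 0.12). Control mouse 3 had the 9.35, and the next control mouse was at 9.06. Slc38a7, known from lysosomes as a glutamine and asparagine carrier, had a difference of 0.02, and Slc38a9, an amino acid sensor of the lysosome that acts on mTORC1, of 0.00914 on the probe above the floor. The other Slc38a9 probes, below the floor, gave 0.03 (unadjusted p = 0.0437, adjusted p = 0.879 in limma) and -0.00484. Slc38a10 was just under the limit and had a difference of 0.04. The median change of the 14 Slc38a probes was -0.00335, with 9 lower and 5 higher. Slc38a1, Slc38a4, Slc38a5, Slc38a8 and Slc38a11 were below the floor.

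Slc6a6 and Slc6a8 had signals far above the floor, so a change of their mRNA would be little compressed. Slc6a6, the taurine transporter, ranged from 11.94 to 12.22 in control and from 12.00 to 12.20 in ATF4 mKO mice. Its change was 0.01 ± 0.04 (S.E.; 95% interval -0.08 to 0.11; limma, adjusted p = 0.994). Slc6a8, the creatine transporter, ranged from 11.80 to 12.01 in control and from 11.69 to 12.07 in ATF4 mKO mice. Its change was -0.02 ± 0.05 (S.E.; 95% interval -0.12 to 0.08; limma, adjusted p = 0.986). For both, the ranges of the genotypes overlapped almost entirely. Of the 21 Slc6a probes, 1 fell and 20 did not pass, the median change was -0.00378, and 15 were lower and 6 higher.

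The other Slc6a members were below the limit of 8.5 on every probe. They were Slc6a2, Slc6a3 and Slc6a4, the carriers of noradrenaline, dopamine and serotonin, Slc6a5, the other glycine transporter, Slc6a7 and Slc6a15 of proline and other neutral amino acids, Slc6a11, Slc6a12 and Slc6a13 of GABA and related molecules, and Slc6a14, Slc6a17, Slc6a19, Slc6a20a, Slc6a20b and Slc6a21. Slc6a17, a carrier of synaptic vesicles, had the largest decrease of any probe below the floor, -0.04 (limma, adjusted p = 0.894). Slc6a5 gave -0.02 (limma, unadjusted p = 0.0292, adjusted p = 0.841) at a signal of 8.32. The test of the methods at its own unadjusted limit marked 3 of the 80 carrier probes, namely Slc6a9, Slc7a5 and Slc6a5, and 2.85% of all probes.

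Of the glutamate and neutral amino acid carriers of the Slc1a family, 0 of 12 probes passed. Slc1a3, a glutamate transporter best known from glia, ranged from 8.61 to 8.86 in control and from 8.55 to 8.98 in ATF4 mKO mice. Its change of 0.11 ± 0.06 (S.E.; 95% interval -0.01 to 0.22; limma, unadjusted p = 0.0776, adjusted p = 0.894) was the largest increase of the 80 probes, with 7 of 8 ATF4 mKO mice above the control mean. ATF4 mKO mouse 7 was the exception and had the lowest signal of all 16 mice. Slc1a1, the neuronal and epithelial glutamate transporter, ranged from 8.74 to 8.90 in control and from 8.68 to 8.89 in ATF4 mKO mice and had a difference of -0.00848 (95% interval -0.07 to 0.06). Slc1a2, Slc1a4, Slc1a5, Slc1a6 and Slc1a7 were below the limit on every probe. The glutamine carrier Slc1a5 gave 8.31 and 8.34 on its probes. The median change of the family was 0.00106, with 4 lower and 8 higher.

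**Figure D3:**
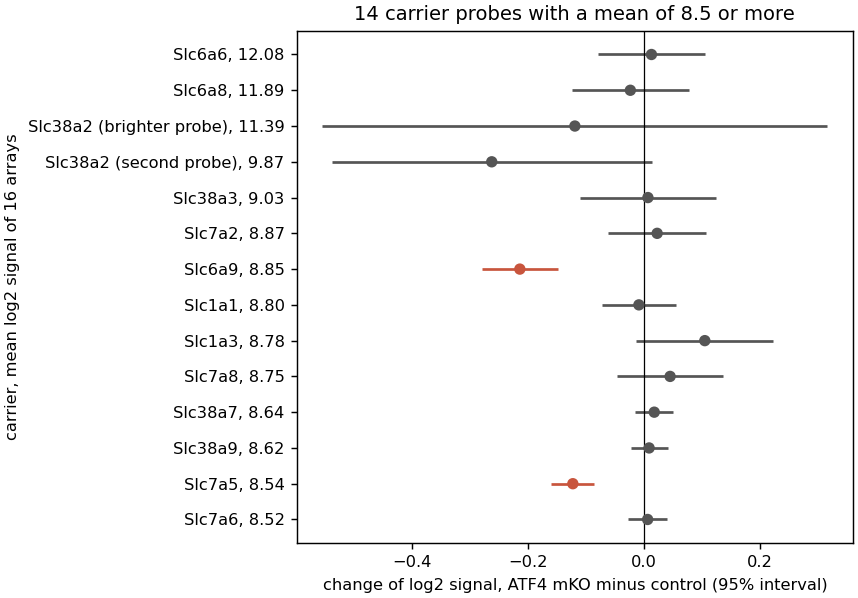
Change of log2 signal, ATF4 mKO minus control (horizontal axis, points, with 95% intervals of limma as lines), of the 14 carrier probes above the floor, ordered by mean log2 signal (given after each name); red marks the called probes. The intervals of Slc6a9 and Slc7a5 lie below 0 and those of the other 12 include 0, with both Slc38a2 probes the widest.

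The small families were at the floor throughout. Slc36a1, Slc36a2 and Slc36a3, proton-coupled carriers of small amino acids, had differences between -0.02 and 0.01. The brightest, Slc36a2, ranged from 8.38 to 8.44 in control and from 8.35 to 8.43 in ATF4 mKO mice (two-sided exact permutation p = 0.0858). Slc43a2, a carrier of large neutral amino acids, had differences of 0.00200 and -0.02 on its probes. Its brighter probe was lowest at 8.33 in control and 8.35 in ATF4 mKO mice, with a median of 8.36 in both (two-sided exact permutation p = 0.832). Slc43a3 had a difference of 0.000765. Over all 66 probes below the floor, 39 were lower and 27 higher, the changes lay between -0.0445 (Slc6a17) and 0.0359 (Slc38a10), and their median was -0.00124.

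**Figure D4:**
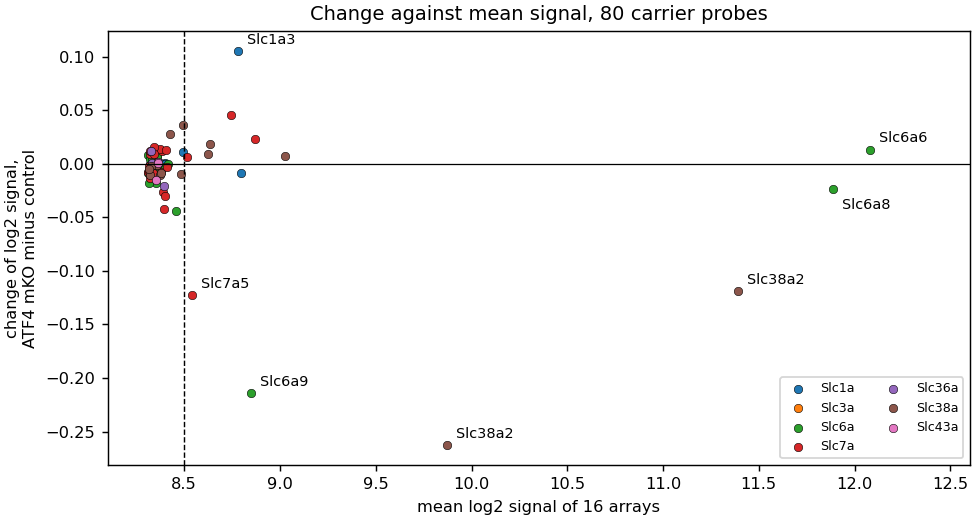
Change of log2 signal, ATF4 mKO minus control (vertical axis), against mean log2 signal over 16 arrays (horizontal axis) for the 80 carrier probes, coloured by family; the dashed line is at 8.5. Probes left of the line lie between -0.0445 and 0.0359, and to its right Slc6a9, Slc7a5 and both Slc38a2 probes lie lowest.

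A list of 9 carriers known as ATF4 targets from other cells was read beside the families. It was Slc1a4, Slc1a5, Slc3a2, Slc6a9, Slc7a1, Slc7a3, Slc7a5, Slc7a11 and Slc38a2. By the brightest probe of each gene, 2 fell, 0 rose and 7 did not pass, while 0.136% of all probes were called. Of the 9, 3 were above the floor (Slc6a9, Slc7a5 and Slc38a2). The median change of the list was -0.03, the value of a Slc7a3 probe below the floor, and the other Slc7a3 probe gave 0.00916. The median of all probes, not only the brightest of each gene, was 0.000468. Since this list was chosen with earlier results known, it is no independent evidence of its direction. Of 14 carriers of amino acids or peptides outside the 7 families, 12 were measured, 5 were above the floor, and 0 passed (limma, with 0 at an unadjusted p of 0.05 by the brightest probe of each gene). They included Slc15a4, a peptide and histidine carrier of lysosomes, with a difference of -0.02, Ctns, the lysosomal cystine carrier, with 0.02, and Slc16a10, a carrier of aromatic amino acids, with 0.03. The median change of the 12 was 0.00457, with 4 lower and 8 higher.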

How the data were processed

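RNA of quadriceps femoris from 8 control and 8 ATF4 mKO mice was hybridized by the authors to Illumina Mouse Ref-8 version 2.0 BeadChips, 1 array per mouse, and extracted in BeadStudio. The authors deposited 1 table of log2 signals per probe. The sources used here do not give background correction, normalization or slide positions, so a slide effect could not be told apart from genotype. Array medians lay between 8.378 and 8.381, and 65.7% of probes had a mean below 8.5. The number of arrays, 8 per group, limits the precision.

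Groups came from the sample labels, which name separate mice. The annotation gave 1 symbol to 23978 probes and none to 1719, and the gene identifiers of all 80 member probes were found in the gene table (GRCm38.p6). Every probe was fitted with lmFit and eBayes (limma 3.58.1, R 4.3.3), two-sided, with Benjamini-Hochberg adjustment over 25697 probes, and calls were made at an adjusted p of 0.1. Exact permutation tests and relations used Python 3.11.15 with SciPy 1.17.1. The permutation tests between genotypes were run on 11 carrier probes, chosen in part by their limma result, and were not adjusted.

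The members, lists and tests were chosen with earlier results of these data known. Values per mouse are given for called probes, probes at an unadjusted limma p of 0.025 or less, Slc6a9 and Slc38a2 (named in the study) and the brightest probe of each family; other members above the floor are given by mean and change, some with their range. Members below the floor are named, with the range of the changes over all of them and values for some. Marker lists not described in the text (adipocyte, macrophage, leukocyte, Schwann, fibroblast, smooth muscle and satellite cells) had 0 members called.

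The alternatives were quantile normalization, median centring, leaving out probes below 8.5, mouse number as a replicate block, array weights, a robust variance prior that depends on signal (limma's trend), the methods' t-test, each array left out, control mice 3 and 7 left out, an adjusted p of 0.05, gene means and other floors. A fit without control mouse 7 and ATF4 mKO mice 5 and 8, farthest out on one side of the first principal component, was added after the data were seen.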

Additional observations from a re-analysis of the deposited data

Results flagged for a closer look

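In each of 18 carrier probes the highest and lowest mouse of either genotype was compared with the others, 36 groups in all, and chance alone marks about 1 in 20. For Slc7a5, control mouse 7 at 8.70 stood apart from the next control mouse at 8.62, a gap of 0.563 of the range of the group. It lies on the side away from the ATF4 mKO mice. For Slc38a3, control mouse 3 at 9.35 stood apart from the next at 9.06, a gap of 0.575 of the range. Without it the change of Slc38a3 was 0.05, and it did not pass the threshold with or without that mouse.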

How the results depend on the processing

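The falls of Slc6a9 and Slc7a5 were called in every fit run except that with mouse number as a replicate block. Across the other alternatives the adjusted p (limma; the methods' t-test also adjusted) ran from 6.18e-05 to 0.0431 for Slc6a9 and from 0.000203 to 0.0198 for Slc7a5. The fit without probes below 8.5 kept Slc7a5 only through the control mice, since its mean in ATF4 mKO mice was 8.48. With 1 array left out, the change of Slc6a9 lay between -0.23 and -0.20 and that of Slc7a5 between -0.13 and -0.11. The number of carriers called was 2 in each fit but 0 with the replicate block, and 3 at the unadjusted limit of the methods' t-test. Over all probes, 35 were called, 28 to 37 with 1 array left out, 20 without control mouse 7 and ATF4 mKO mice 5 and 8, and 733 at the unadjusted limit of that t-test. Depth is not given for arrays, and signals near the floor limit what could be seen: 13 carrier genes were above it, 19 with a floor of 8.4, 15 by the higher of the genotype means, 4 with a floor of 9, and 13 to 14 with 1 array left out.

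The mouse number in the labels was checked as a pairing. The correlation of the deviations of mice with the same number ran from -0.232 to 0.247. Only the mice numbered 8 correlated best with their own number. These correlations cannot tell whether mice with the same number shared a litter or a slide, since the labels give neither. A shared litter or slide was not tested. When the number was fitted as a replicate block, 16 of all probes were called. They held 0 carriers and 0 of the 9 carriers known as ATF4 targets (limma, adjusted p = 0.252 for Slc6a9 and 0.107 for Slc7a5). The cause was not tested.

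Small changes of carriers that were not called turned sign. Slc1a1 was 0.000644 with array weights, Slc7a2 -0.01 (-0.0127) without control mouse 7 and ATF4 mKO mice 5 and 8, and Slc43a2 -0.00222 without control mice 3 and 7. With 1 array left out, Slc1a1 ranged from -0.0222 to 0.00718, Slc38a9 from -0.000295 to 0.0165, Slc7a6 from -0.00309 to 0.0146, Slc6a8 from -0.0511 to 0.00322, Slc6a6 from -0.00596 to 0.0343, Slc43a2 from -0.00213 to 0.00760 and Slc38a3 from -0.0186 to 0.0539. The cause was not tested.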
